A study of Homo sapiens with 39 samples.

Results

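The transcripts described here are those of 10 genes of the MYC, MAX and MXD network: MYC, MAX, MXD1, MXD3, MXD4, MXI1, MNT, MLX, MLXIP and MGA. They were chosen by symbol as members of the network, with earlier results of these data known, and each matched 1 of the 57773 identifiers of the count table. All 10 passed the filter on low counts that kept 14460 genes. RNA was sequenced from JJN3, an established human multiple myeloma (malignant plasma cell) line grown in RPMI with 10% FCS, in 39 libraries. Cells at the start (T0) made up 1 group of 3 libraries, and exposure to each of DMSO, ZnSO4 and GSK-J4 made up 4 more, at 1, 3, 6 and 24 h, for 13 groups in all. GSK-J4 is a cell-permeable inhibitor of KDM6 histone H3K27 demethylases, ZnSO4 is a zinc salt and DMSO is the solvent control. The sources used here do not give the doses or say whether ZnSO4 cultures also held DMSO, and the treatment protocol names 3, 6 and 24 h while sample labels also carry 1 h.

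MYC is a transcription factor that drives growth genes and binds DNA only as a pair with MAX, at the E-box. MXD1, MXD3, MXD4, MXI1 and MNT also pair with MAX on E-boxes, recruit the SIN3-HDAC corepressor and thereby oppose MYC, and MGA pairs with MAX inside a Polycomb complex, PRC1.6. MLX pairs with MLXIP (MondoA), a glucose sensor, and with some of the MXD proteins and MNT. In myeloma MYC is a common driver, often through rearrangement of its locus.

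The E-box, CACGTG, reads the same on both strands. In RefSeq promoter windows of GRCh38.p14, which run from 250 bases before to 50 bases after a gene's start, it was present in 7.23% of 34943 windows. The table held 14 windows for 9 of the genes, and the MYC window was not used here. The E-box occurred in the windows of MXD4, MNT and MLX, printed here 5′ to 3′ along each gene with the E-box in capitals, because these are members whose own window holds the site that the network binds. The MXD4 window is chr4:2262060-2262359 on the minus strand, the MNT window chr17:2401011-2401310 on the minus strand and the MLX window chr17:42566850-42567149 on the plus strand. The first E-box base lies at -238 in MXD4, -193 in MNT and -50 in MLX, with the start counted as 0.
MXD4: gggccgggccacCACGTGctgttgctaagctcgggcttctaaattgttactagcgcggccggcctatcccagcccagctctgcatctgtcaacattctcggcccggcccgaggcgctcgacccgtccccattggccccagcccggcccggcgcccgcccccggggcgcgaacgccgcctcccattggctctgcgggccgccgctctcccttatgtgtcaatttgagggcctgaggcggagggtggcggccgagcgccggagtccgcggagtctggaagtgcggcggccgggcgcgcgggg
MNT: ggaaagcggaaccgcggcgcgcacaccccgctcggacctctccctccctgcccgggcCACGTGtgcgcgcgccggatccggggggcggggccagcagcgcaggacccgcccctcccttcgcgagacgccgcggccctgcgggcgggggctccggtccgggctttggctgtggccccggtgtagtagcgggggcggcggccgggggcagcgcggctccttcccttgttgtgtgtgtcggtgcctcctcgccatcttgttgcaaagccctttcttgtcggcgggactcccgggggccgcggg
MLX: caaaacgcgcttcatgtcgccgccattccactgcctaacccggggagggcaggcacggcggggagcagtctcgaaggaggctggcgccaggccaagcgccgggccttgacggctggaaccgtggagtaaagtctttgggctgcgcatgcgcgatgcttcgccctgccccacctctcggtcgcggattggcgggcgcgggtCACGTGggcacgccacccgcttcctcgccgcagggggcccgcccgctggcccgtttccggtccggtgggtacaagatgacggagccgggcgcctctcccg

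The core of the metal response element, searched on both strands in its forms TGCACNC and TGCGCNC, was present in 12.1% and 19.9% of all windows. The first form matched in 2 of 3 MXI1 windows and 1 of 3 MGA windows. The second form matched at 2 places in the MNT window, 1 of them directly after the E-box with no overlap, and in 1 of 3 MGA windows. None of these letters occurred in the MXD1, MXD4 or MLX windows. A match is a description of the letters only.

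Library totals ran from 4347745 to 10695671 counts (median 6010529). Levels are CPM (TMM-scaled counts scaled to library size), given for replicates 1 to 3 in order, and changes are log2 fold changes ± SE from edgeR's quasi-likelihood test over all groups, called at Benjamini-Hochberg adjusted p under 0.05 over all genes tested. No label calls the replicates separate cultures, so a p-value reflects the scatter among libraries alone, and that scatter may be technical. Per kb of exon (GENCODE 29), the median level over all libraries was 312 CPM per kb for MYC. It was 15.98 for MLX, 14.99 for MAX, 12.8 for MXI1, 5.41 for MGA, 4.21 for MLXIP, 3.70 for MXD1, 3.59 for MXD4, 2.85 for MNT and 1.95 for MXD3. MYC was thus the most abundant member by a wide margin. The kit named in the labels does not mark strand, so reads over exons shared by genes on opposite strands cannot be assigned. On the opposite strand, MXD3 shares 1158 exon bases with PRELID1, MNT 1065 with AC006435.1 and MLX 770 with PSMC3IP. MXD3 also shares 926 with RAB24 on the same strand, where strand would not tell reads apart. All 8 plasma cell markers had counts in every library, including SDC1 at 110.6 to 274.5 CPM and IRF4 at 467 to 1375 CPM. Among markers of other cell types, the T cell gene CD3D was at 0 in 38 libraries, NKG7 and LYZ each in 33 and CD3E in 5. The others matched had counts in every library. EPCAM stood at 30.8 to 62.6 CPM, COL1A1 at 3.60 to 32.7, COL1A2 at 1.06 to 33.2, KRT8 at 4.29 to 16.3 and MS4A1 at 1.25 to 6.01. PAX5, HBB and CD14 reached at most 3.15, 2.47 and 1.25 CPM. The T0 libraries scattered widely for some members, among them MYC, MNT, MXD3 and MLXIP.

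Against the DMSO libraries of the same time, which both agents share as controls, no member was called at 1 h in edgeR. For GSK-J4 at 1 h, 0 of 10 members also passed an unadjusted p under 0.05 and 0 were called by DESeq2, where 0.104% of all genes were called by edgeR. ZnSO4 at 1 h gave 0 calls, with 1 member under an unadjusted 0.05 and 0 by DESeq2, against 0.678% of all genes. At 3 h GSK-J4 again gave 0 member calls in edgeR (2 under an unadjusted 0.05, 0 by DESeq2), against 2.38% of all genes. ZnSO4 at 3 h gave 5, with MXD1, MXD4 and MXI1 higher and MYC and MLX lower, against 10.8% of all genes. At 6 h GSK-J4 gave 4 calls (MXD1 and MXI1 higher, MYC and MLX lower), against 20.4% of all genes, and ZnSO4 gave 3 (MXD1 and MXD4 higher, MYC lower), against 9.32%. At 24 h GSK-J4 gave 3 calls (MGA higher, MYC and MAX lower), a share close to the 32% of all genes. ZnSO4 at 24 h gave 1 (MYC lower), a share near the 9.56% of all genes. MXD3, MNT and MLXIP were called in none of these 8 comparisons.

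**Figure D1:**
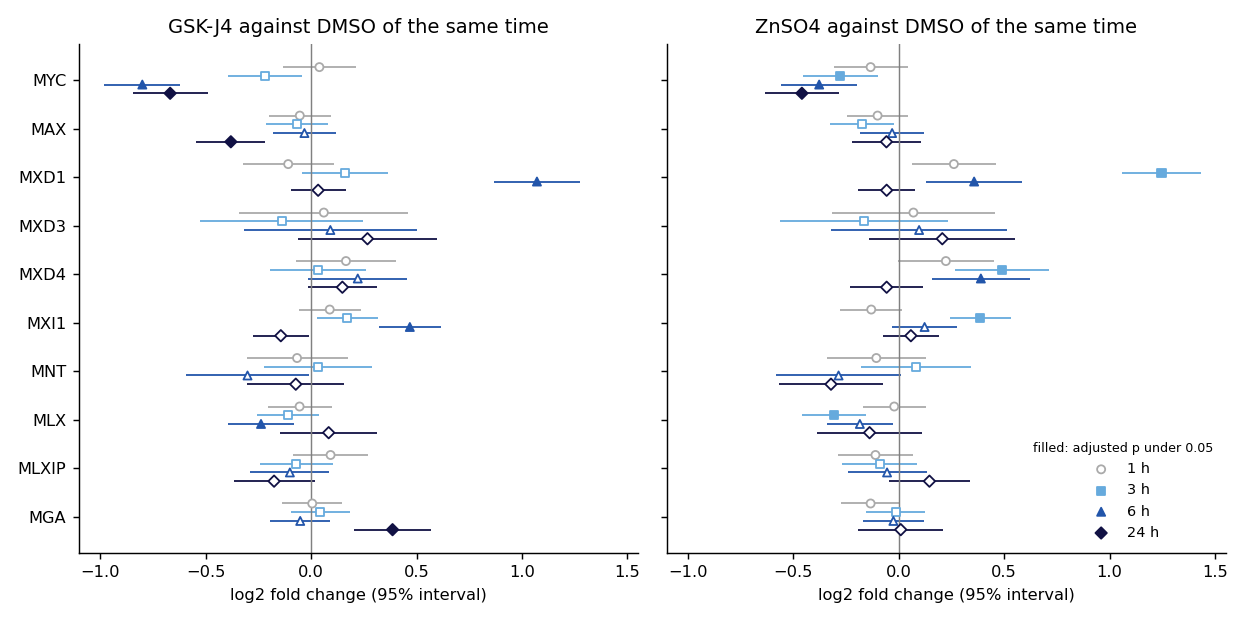
Log2 fold change (x axis) with its 95% interval for each of the 10 members under GSK-J4 (left) and ZnSO4 (right) against DMSO of the same time, with marker shape and shade for 1, 3, 6 and 24 h. Filled markers passed the test: MYC lies left of 0 at 6 and 24 h in both panels, and MXD1 lies farthest right at 6 h for GSK-J4 and at 3 h for ZnSO4.

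MYC fell under both agents. In DMSO its level was 1375, 1198 and 1176 CPM at 1 h, 1010, 1050 and 1057 at 3 h, 849, 834 and 1159 at 6 h, and 1332, 1297 and 1411 at 24 h. With GSK-J4 it was 1242, 1335 and 1276 CPM at 1 h, 861, 909 and 909 at 3 h, 560.5, 545 and 526 at 6 h, and 893, 821 and 828 at 24 h. The GSK-J4 libraries overlapped those of DMSO at 1 h and lay below all of them from 3 h on. The log2 fold change was 0.04 ± 0.09 at 1 h, -0.22 ± 0.09 at 3 h (edgeR adjusted p = 0.23), -0.80 ± 0.09 at 6 h (adjusted p = 1.3e-10) and -0.67 ± 0.09 at 24 h (adjusted p = 9.1e-09). The fitted MYC level at 6 h was 0.574 of that in DMSO. DMSO replicate 3 at 6 h stood well above the other 2 DMSO libraries, and without it the fall at 6 h was -0.63 (edgeR adjusted p = 6e-08). Fitted with its own groups only, the 3 h difference also passed (log2 fold change -0.22, edgeR adjusted p = 7.8e-12). The size of the change was the same, and that fit took the spread from these groups alone. Their libraries lay close together (SD 25.6 CPM in DMSO and 27.6 with GSK-J4), which may be technical.

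With ZnSO4 the MYC level was 1161, 1136 and 1122 CPM at 1 h, 915, 825 and 833 at 3 h, 781, 704.5 and 701 at 6 h, and 1034, 935 and 969 at 24 h. These libraries lay below those of DMSO at every time, with a small gap at 1 h. The log2 fold change was -0.13 ± 0.09 at 1 h (edgeR adjusted p = 0.87), -0.28 ± 0.09 at 3 h (0.029), -0.38 ± 0.09 at 6 h (0.0024) and -0.46 ± 0.09 at 24 h (0.00018). The 24 h call held without any of its 6 libraries (-0.50 to -0.42). The 3 h call was lost with DESeq2 (adjusted p = 0.13) and without DMSO replicate 1, 2 or 3 or ZnSO4 replicate 2 or 3 (edgeR adjusted p from 0.051 to 0.12). The 6 h call was lost without DMSO replicate 3 (log2 fold change -0.21, edgeR adjusted p = 0.15).

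**Figure D2:**
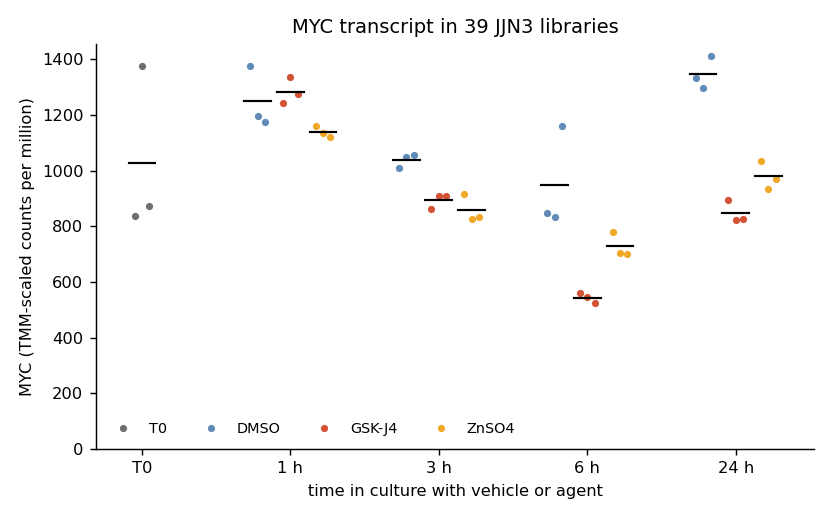
MYC level in TMM-scaled CPM (y axis, from 0) in each library at T0 and at 1, 3, 6 and 24 h, coloured by T0, DMSO, GSK-J4 and ZnSO4, with a bar at each group mean. The lowest libraries are those of GSK-J4 at 6 h (526 to 560.5), and 1 library each of T0 and of DMSO at 6 h lies far above its group.

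Between the agents at 1 h, 0 members were called in edgeR (3 under an unadjusted 0.05, 0 by DESeq2), against 0.664% of all genes. At the same time of exposure, MYC was lower with GSK-J4 than with ZnSO4 at 6 h by -0.42 ± 0.09 (edgeR adjusted p = 0.00032), where 18.4% of all genes were called. No difference passed at 1 h (0.17, interval -0.00 to 0.35), 3 h (0.06, interval -0.12 to 0.24) or 24 h (-0.21, interval -0.39 to -0.03, edgeR adjusted p = 0.082). The 24 h difference passed when fitted with its own groups only (edgeR adjusted p = 7.5e-05) and with no filter on low counts (0.00091). The change of the GSK-J4 effect from 1 to 3 h was called for 0 members in edgeR (1 under an unadjusted 0.05, 0 by DESeq2), against 0.588% of all genes. The effect of GSK-J4 on MYC was larger at 6 h than at 3 h by -0.58 ± 0.13 (edgeR adjusted p = 0.0018), and by -0.42 without DMSO replicate 3 at 6 h (0.035). Over all genes 3.67% were called in that difference of effects. From the highest to the lowest group mean, MYC ran from DMSO at 24 h (1347 ± 58.6 CPM, SD, n = 3) to GSK-J4 at 6 h (544 ± 17.5). The libraries of neighbouring groups in that order overlapped, except below DMSO at 1 h, ZnSO4 at 1 h, GSK-J4 at 24 h and ZnSO4 at 6 h.

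MAX, the shared partner of the network, stood within 57.7 to 77.9 CPM in every library up to 6 h. At 24 h it was 57.6, 62.8 and 59.2 CPM in DMSO, 51.8, 43.6 and 42.6 with GSK-J4 and 63.3, 56.6 and 52.9 with ZnSO4. The GSK-J4 libraries all lay below both other groups, and the ZnSO4 libraries overlapped DMSO. MAX fell by 0.38 ± 0.08 on the log2 scale with GSK-J4 at 24 h (edgeR adjusted p = 0.00016), and was lower than with ZnSO4 by -0.32 ± 0.09 (0.0039). The change of the GSK-J4 effect from 6 to 24 h was -0.35 ± 0.11 (edgeR adjusted p = 0.047), with 5.75% of all genes called. That call was lost with library totals, with no filter and without any of 8 of its 12 libraries (DMSO replicates 1 and 2 and GSK-J4 replicates 1 and 2 at 6 h, DMSO replicates 2 and 3 and GSK-J4 replicates 2 and 3 at 24 h), at adjusted p from 0.064 to 0.16.

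MXD1, which pairs with MAX in cells that leave the cycle, had the largest changes under the agents. At 3 h it was 20.3, 19.1 and 20.9 CPM in DMSO, 21.7, 23.5 and 21.9 with GSK-J4 and 44.05, 48.6 and 49.4 with ZnSO4. At 6 h it was 17.5, 15.7 and 16.5 CPM in DMSO, 35.35, 35.5 and 33.5 with GSK-J4 and 20.45, 18.8 and 23.9 with ZnSO4. ZnSO4 libraries were thus high at 3 h and GSK-J4 libraries high at 6 h, with no overlap with DMSO. MXD1 rose 2.37-fold with ZnSO4 at 3 h (log2 fold change 1.25 ± 0.09, edgeR adjusted p = 3.3e-17) and 2.101-fold with GSK-J4 at 6 h (1.07 ± 0.10, 4.4e-13). Each held without any 1 library (1.21 to 1.29 and 1.03 to 1.11). At 6 h ZnSO4 left it 0.36 ± 0.11 higher (edgeR adjusted p = 0.033), a call lost with DESeq2 (0.052), with no filter, with its own groups only and without DMSO replicate 2 or 3 or ZnSO4 replicate 1 or 3 (edgeR adjusted p from 0.051 to 0.31).

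The timing of the MXD1 response differed between the agents. GSK-J4 stood below ZnSO4 at 3 h by -1.09 ± 0.08 (edgeR adjusted p = 8e-17) and above it at 6 h by 0.71 ± 0.10 (8.8e-08). In the comparison of agents at 3 h, 10.1% of all genes were called. The ZnSO4 effect on MXD1 rose from 1 to 3 h by 0.99 ± 0.14 (edgeR adjusted p = 6.2e-07, 2.77% of all genes called) and fell from 3 to 6 h by 0.89 ± 0.15 on the log2 scale (3.7e-05, 2.18% of all genes). From 6 to 24 h the ZnSO4 effect was called different for 0 members in edgeR (2 under an unadjusted 0.05, 0 by DESeq2), against 0.408% of all genes. The GSK-J4 effect on MXD1 rose from 3 to 6 h by 0.91 ± 0.15 (edgeR adjusted p = 1.3e-05). At 24 h MXD1 was 114, 124 and 114 CPM in DMSO, 120, 121 and 119 with GSK-J4 and 114, 117 and 107 with ZnSO4. These groups overlapped with DMSO, at log2 fold changes of 0.03 (interval -0.10 to 0.17) and -0.06 (interval -0.19 to 0.08).

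MXI1, an antagonist of MYC of the same family, was 51.0, 57.5 and 58.8 CPM in DMSO at 3 h and 70.9, 73.4 and 73.1 with ZnSO4. At 6 h it was 48.7, 51.7 and 57.6 CPM in DMSO and 70.8, 71.1 and 76.9 with GSK-J4. In both pairs every treated library lay above every DMSO library. MXI1 rose by 0.39 ± 0.07 with ZnSO4 at 3 h (edgeR adjusted p = 5.5e-05) and by 0.47 ± 0.07 with GSK-J4 at 6 h (1.1e-06). As for MXD1, the level with GSK-J4 was below that with ZnSO4 at 3 h (-0.21 ± 0.07, edgeR adjusted p = 0.025) and above it at 6 h (0.35 ± 0.07, 0.00032). The 3 h difference was lost with library totals, with no filter and without GSK-J4 replicate 1 or 2 or ZnSO4 replicate 2 or 3 (edgeR adjusted p from 0.083 to 0.20). At 24 h MXI1 stood at 99.1, 103 and 93.4 CPM in DMSO, 89.5, 89.8 and 88.5 with GSK-J4 and 112, 98.0 and 98.2 with ZnSO4. It was lower with GSK-J4 than with ZnSO4 there (-0.20 ± 0.07, edgeR adjusted p = 0.025), which was lost with library totals (0.17), no filter (0.082) and without ZnSO4 replicate 1 (0.18) or any GSK-J4 library (0.053 to 0.061).

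MXD4, the family member found in resting and differentiating cells, was 21.8, 24.9 and 21.1 CPM in DMSO at 3 h, 24.6, 25.4 and 19.7 with GSK-J4 and 32.2, 28.6 and 35.1 with ZnSO4. Every ZnSO4 library lay above the others, and GSK-J4 overlapped DMSO. MXD4 rose by 0.49 ± 0.11 with ZnSO4 at 3 h (edgeR adjusted p = 0.0011), and was lower with GSK-J4 than with ZnSO4 by -0.46 ± 0.10 (0.00092). At 6 h it was 23.5, 24.1 and 21.5 CPM in DMSO and 29.4 to 31.02 in the 3 ZnSO4 libraries, none of which overlapped DMSO. This was a rise of 0.39 ± 0.12 (edgeR adjusted p = 0.021). The 6 h call was lost with no filter (0.072) and without DMSO replicate 3 (0.11) or ZnSO4 replicate 1 (0.076) or 3 (0.066).

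MXD3, a family member linked to S phase, and MNT, the widely expressed MAX partner that holds MYC sites in resting cells, were the lowest members per kb. MXD3 ran from 6.47 to 12.8 CPM up to 6 h with wide scatter, and its log2 fold changes against DMSO ranged from -0.17 ± 0.20 to 0.27 ± 0.17. MNT at 24 h was 37.2, 38.8 and 40.4 CPM in DMSO, 35.8, 38.6 and 36.2 with GSK-J4 and 33.5, 29.7 and 29.99 with ZnSO4. The ZnSO4 libraries lay below those of DMSO at a log2 fold change of -0.32 ± 0.12 (edgeR adjusted p = 0.091). That difference passed only when fitted with its own groups (0.031).

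**Figure D3:**
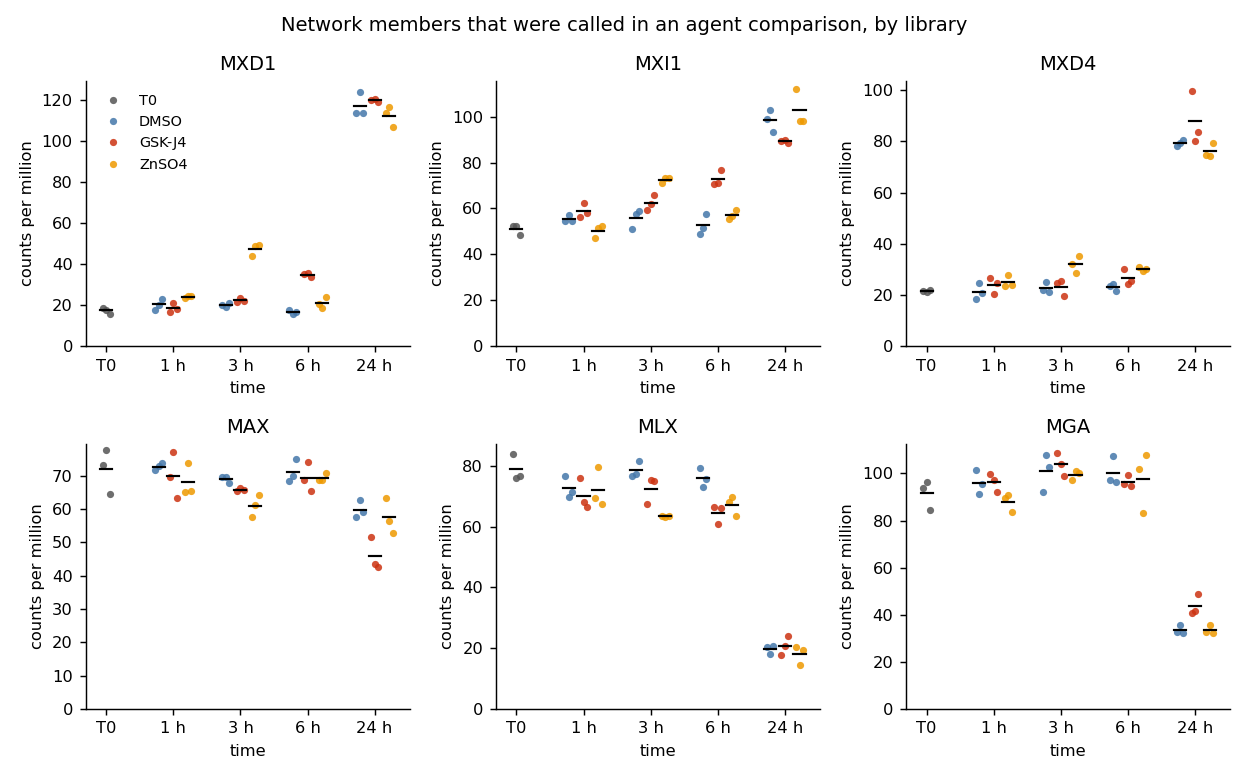
Level in TMM-scaled CPM (y axes, from 0) of MXD1, MXI1, MXD4, MAX, MLX and MGA in each library at T0 and at 1, 3, 6 and 24 h, coloured by treatment, with a bar at each group mean. MXD1 is high with ZnSO4 at 3 h (44.05 to 49.4) and with GSK-J4 at 6 h (33.5 to 35.5), and the 24 h libraries of every treatment stand apart for MXD1, MXD4, MXI1, MLX and MGA.

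MLX, the partner of MLXIP, was 76.6, 77.5 and 81.7 CPM in DMSO at 3 h and 63.7, 63.1 and 63.6 with ZnSO4. At 6 h it was 79.4, 73.0 and 75.6 CPM in DMSO and 66.4, 61.0 and 66.1 with GSK-J4. Neither pair overlapped. MLX fell by 0.31 ± 0.08 on the log2 scale with ZnSO4 at 3 h (edgeR adjusted p = 0.0031) and by 0.24 ± 0.08 with GSK-J4 at 6 h (0.021). The GSK-J4 call was lost with library totals (0.072) and without DMSO replicate 1 (0.099) or GSK-J4 replicate 2 (0.12). At 24 h the groups overlapped with DMSO, between 14.4 and 24.0 CPM.

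MLXIP at 24 h was 54.2, 54.8 and 51.3 CPM in DMSO, 48.2, 48.0 and 45.9 with GSK-J4 and 62.3, 59.3 and 56.0 with ZnSO4. The 3 groups did not overlap. Neither agent passed against DMSO (-0.18 ± 0.10 and 0.15 ± 0.10), but GSK-J4 was below ZnSO4 by -0.32 ± 0.10 (edgeR adjusted p = 0.013), where 24.5% of all genes were called. This was lost with library totals (0.068) and without ZnSO4 replicate 1 (0.057). Of targets of the MLX and MLXIP pair, ARRDC4 had 19 counts in all libraries together and was below the filter. TXNIP was not analysed here, because no identifier was matched to its symbol.

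MGA at 24 h was 32.6, 35.5 and 32.1 CPM in DMSO, 40.8, 41.5 and 48.7 with GSK-J4 and 32.8, 35.6 and 32.4 with ZnSO4. Every GSK-J4 library was above both other groups, which overlapped. MGA rose by 0.39 ± 0.09 with GSK-J4 (edgeR adjusted p = 0.00066), and was higher than with ZnSO4 by 0.38 ± 0.10 (0.0031). Without GSK-J4 replicate 3, the highest library, the difference between agents was 0.28 (edgeR adjusted p = 0.057) and the rise against DMSO was 0.29 and still called. From 6 to 24 h the GSK-J4 effect on MGA changed by 0.44 ± 0.12 (edgeR adjusted p = 0.012), lost with no filter (0.065) and without that replicate (0.10).

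Read against its competitors, MYC stood lower at 3 and 6 h than by its own level, and at 24 h about as low. The reads of MYC per read of MXD1, MXD3, MXD4, MXI1 and MNT together were 7.73 ± 0.868 in DMSO at 6 h and 3.38 ± 0.157 with GSK-J4 (SD, n = 3), which is 0.438 of DMSO, where the MYC level alone was 0.574 of DMSO. At 3 h the ratio was 7.90 ± 0.0905 in DMSO, 6.35 ± 0.129 with GSK-J4 and 4.63 ± 0.345 with ZnSO4. Relative to DMSO the ratio with GSK-J4 was 0.996 at 1 h, 0.803 at 3 h and 0.622 at 24 h. With ZnSO4 it was 0.898 at 1 h, 0.586 at 3 h, 0.700 at 6 h and 0.745 at 24 h. MYC alone stood at 0.629 of DMSO with GSK-J4 and 0.727 with ZnSO4 at 24 h. The treated libraries overlapped DMSO at 1 h and lay below it at 3, 6 and 24 h for both agents. Per read of MAX, MYC relative to DMSO was 1.07, 0.901, 0.5915 and 0.821 at 1, 3, 6 and 24 h of GSK-J4, and 0.978, 0.936, 0.791 and 0.757 at those times of ZnSO4. The GSK-J4 ratio at 24 h was thus nearer to DMSO than MYC alone, and MAX was also lower there. These ratios count transcripts, not proteins, and carry no test.

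**Figure D4:**
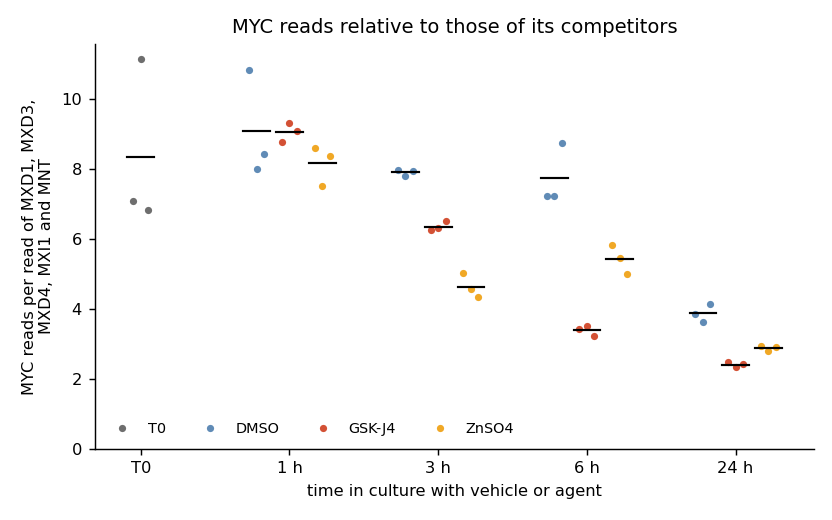
Reads of MYC per read of MXD1, MXD3, MXD4, MXI1 and MNT summed (y axis, from 0) in each library at T0 and at 1, 3, 6 and 24 h, coloured by treatment, with a bar at each group mean. Libraries with GSK-J4 or ZnSO4 lie below DMSO of the same time at 3, 6 and 24 h, and the DMSO libraries of 24 h (3.62 to 4.13) lie below all earlier DMSO libraries.

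All 10 members differed between DMSO at 24 h and T0. Time in culture and exposure to DMSO cannot be told apart here. Against T0, DMSO gave 0 member calls in edgeR at 1 h (3 under an unadjusted 0.05, 0 by DESeq2; 0.0346% of all genes called), at 3 h (0, 0; 0.0968%) and at 6 h (1, 0; 0.0138%). At 24 h the 10 calls stood beside 63.2% of all genes. MXD1 rose from 18.8, 17.7 and 15.8 CPM at T0 to 114, 124 and 114 in DMSO at 24 h, 6.67-fold (log2 fold change 2.74 ± 0.08, edgeR adjusted p = 1.5e-37). MXD4 rose from 21.35, 20.96 and 22.1 CPM to 78.1, 79.4 and 80.4 (1.89 ± 0.10, edgeR adjusted p = 9.7e-26). MXI1 (0.94 ± 0.07), MNT (0.75 ± 0.12) and MXD3 (0.64 ± 0.18) were also higher, so that all 5 competitors rose. Scaled by library totals, the MXD3 value was 0.42 (edgeR adjusted p = 0.041). MNT was 17.4, 24.0 and 29.2 CPM at T0, and its rise ran from 0.56 to 0.90 when 1 library was left out. MLX fell from 83.9, 76.2 and 76.9 CPM to 20.2, 18.1 and 20.8 (-2.01 ± 0.09, edgeR adjusted p = 4.9e-29). MGA fell from 93.9, 96.5 and 84.4 CPM to 32.6, 35.5 and 32.1 (-1.46 ± 0.08, edgeR adjusted p = 1.7e-24). MLXIP (-0.41 ± 0.09) and MAX (-0.27 ± 0.08) were lower, and with library totals these were -0.63 (edgeR adjusted p = 1.2e-08) and -0.50 (2.9e-08). MLXIP was 57.9, 68.15 and 90.7 CPM at T0, and its fall was -0.24 (edgeR adjusted p = 0.01) without T0 replicate 3, the highest of them.

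MYC was 838, 1375 and 874 CPM at T0, so T0 replicate 2 stood as high as the 24 h DMSO libraries. MYC was higher at 24 h by 0.39 ± 0.09 (edgeR adjusted p = 0.00011), by 0.65 without T0 replicate 2 and by 0.26 (0.0089) without T0 replicate 1, and with library totals by 0.16, which did not pass (0.096). That scaling moved the median of all genes in this comparison from -0.02 to -0.24. Without T0 replicate 2 MYC was also higher in DMSO at 1 h (0.55, edgeR adjusted p = 5.4e-06) and 3 h (0.28, 0.046). Without T0 replicate 1 MLXIP was lower in DMSO at 1 h (-0.35, edgeR adjusted p = 0.048) and 6 h (-0.41, 0.0025), and without T0 replicate 3 MNT was higher at 1 h (0.65, 0.024).

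The 24 h libraries of all treatments differed from earlier ones in other ways. Their mitochondrial transcripts made up 4.38 to 5.54% of counts, against 2.92 to 3.90% before. The summed level of the 12 matched markers of other cell types, of 13 listed, was 89.8 to 133 CPM at 24 h and 56.05 to 113 CPM before. Within a time, some of these values also stood apart between agent and DMSO libraries. With GSK-J4 mitochondrial transcripts made up 3.11 to 3.21% of counts at 3 h and 3.00 to 3.135% at 6 h, below DMSO (3.56 to 3.57% and 3.47 to 3.545%), and with ZnSO4 they made up 3.39 to 3.82% and 3.70 to 3.84%. The 8 plasma cell markers summed to 1612 to 1721 CPM with ZnSO4 at 3 h and 1647 to 1749 CPM at 6 h, below DMSO (2043 to 2068 and 1913 to 2142 CPM), and to 2037 to 2134 and 2130 to 2203 CPM with GSK-J4. That sum includes IRF4, PRDM1 and XBP1. At 1 h it was 2203 to 2339 CPM in DMSO, 2115 to 2165 with GSK-J4 and 1857 to 1891 with ZnSO4. At 24 h it was 2298 to 2427, 2176 to 2271 and 1807 to 2069 CPM in the same order. Neither agent overlapped DMSO in this sum at these times. The mitochondrial share at 1 h was 3.57 to 3.68% in DMSO, 3.185 to 3.38% with GSK-J4 and 3.78 to 3.90% with ZnSO4. At 24 h it was 4.75 to 5.19%, 4.38 to 4.81% and 5.21 to 5.54%, where GSK-J4 overlapped DMSO. The part of these shifts in the member changes was not tested. In bulk RNA a smaller share of cells that express a gene and less of its RNA per cell cannot be told apart.

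**Figure D5:**
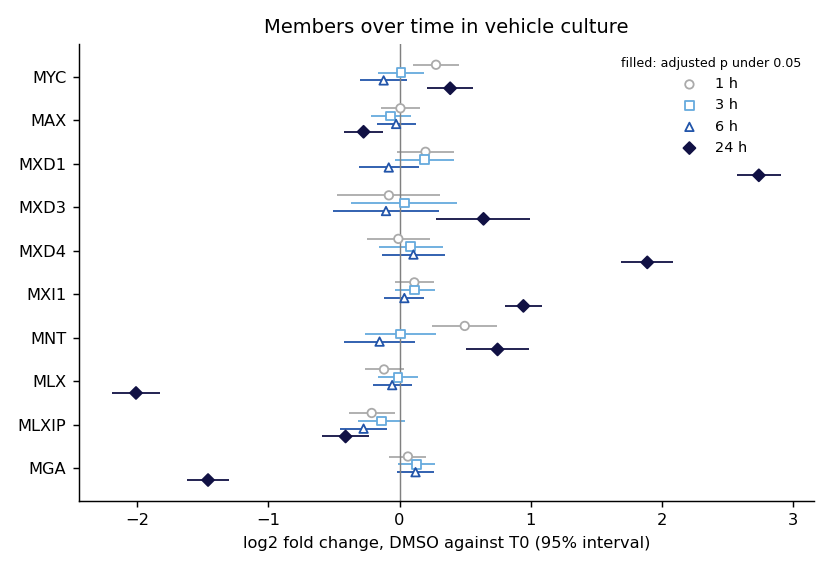
Log2 fold change of DMSO against T0 (x axis) with its 95% interval for each member at 1, 3, 6 and 24 h, by marker shape and shade, filled where the test passed. Only the 24 h markers are filled, with MXD1 (2.74) and MXD4 (1.89) farthest right and MLX (-2.01) and MGA (-1.46) farthest left.

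Of 33 tested genes listed from general knowledge as activated by MYC, the majority were lower with GSK-J4 at 6 and 24 h. With ZnSO4 a part of them was lower. The list includes genes for nucleolar proteins, nucleotide synthesis, glycolysis and translation. Activation by MYC was not measured here. With GSK-J4 3 were higher and 3 lower at 3 h, 3 higher and 21 lower at 6 h, and 3 higher and 26 lower at 24 h, where 10.5% and 16.8% of all genes were lower at 6 and 24 h. With ZnSO4 1 was higher and 12 lower at 3 h, 2 and 13 at 6 h (the 2 higher, LDHA and UBTF, were 0 with RLE size factors, with no filter and with only the groups compared), and 0 and 11 at 24 h, where 4.16%, 4.51% and 5.58% of all genes were lower. At 1 h 0 were called with either agent in edgeR (0 and 2 under an unadjusted 0.05, 0 by DESeq2). The list's median log2 fold change was -0.25 at 6 h and -0.34 at 24 h with GSK-J4, beside 0.01 and 0.02 over all genes. With ZnSO4 it was -0.12, -0.13 and -0.135 at 3, 6 and 24 h, beside 0.00, 0.01 and -0.00. The count lower at 3 h depended on the fit. With GSK-J4 it was 11 when only its own groups were fitted and 0 with no filter, and with ZnSO4 it was 5 with no filter. ODC1, the first enzyme of polyamine synthesis, fell by 0.66 ± 0.04 on the log2 scale with GSK-J4 at 24 h (2915 ± 97.3 to 1845 ± 31.8 CPM, SD) and by 0.24 ± 0.04 with ZnSO4. NCL, nucleolin of the nucleolus, fell by 0.72 ± 0.05 and by 0.20 ± 0.05. LDHA, lactate dehydrogenase, fell by 0.65 ± 0.05 with GSK-J4 at 24 h. MTHFD2, a mitochondrial folate enzyme, went the other way and rose by 0.97 ± 0.05 with GSK-J4 at 6 h and by 0.27 ± 0.05 with ZnSO4 at 3 h.

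Of 9 genes listed from general knowledge as repressed by MYC, 6 were higher and 1 lower with GSK-J4 at 6 h and 4 and 2 at 24 h. With ZnSO4 4, 5 and 3 were higher and 0 lower at 3, 6 and 24 h. The share of all genes called higher was 9.83% (6 h) and 15.2% (24 h) for GSK-J4, and 6.59%, 4.81% and 3.98% (3, 6, 24 h) for ZnSO4. CDKN1A, the p21 cell cycle inhibitor, rose from 3.205 ± 0.80 to 6.80 ± 1.37 CPM with GSK-J4 and to 9.475 ± 1.96 CPM with ZnSO4 at 6 h (log2 fold changes 1.06 ± 0.26 and 1.53 ± 0.24). With GSK-J4 at 6 h DDIT3, a transcription factor of the stress response, went from 5.12 ± 0.898 to 31.02 ± 1.55 CPM, a rise of 2.60 ± 0.15. NDRG1, a stress-responsive gene, fell with GSK-J4 at 6 h (-0.25 ± 0.06) and rose with ZnSO4 (0.30 ± 0.06), and ID2, an inhibitor of helix-loop-helix factors, fell with GSK-J4 at 24 h (-0.67 ± 0.08) and rose with ZnSO4 at 6 h (0.49 ± 0.10). Several of these genes also answer to other stress regulators. Repression by MYC was not measured here and is not settled for ID2.

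The relatives MYCN and MYCL were tested and called in none of the 8 agent comparisons by edgeR (1 at most under an unadjusted 0.05, 0 by DESeq2), and MLXIPL was below the filter with 93 counts in all. Of 16 proteins that MYC binds, GSK-J4 gave 1 higher and 4 lower at 6 h and 3 higher and 8 lower at 24 h, beside 9.83% and 10.5% of all genes at 6 h and 15.2% and 16.8% at 24 h. With library totals the balance was lost, at 2 higher and 2 lower at 6 h and 5 and 5 at 24 h, and without DMSO replicate 2 the count lower at 24 h was 5. ZnSO4 gave at most 2 higher (at 3 h) or 3 lower (at 24 h), where 6.59% of all genes were higher and 5.58% lower. RUVBL1, a helicase subunit of chromatin complexes that MYC recruits, fell by 0.40 ± 0.06 on the log2 scale with GSK-J4 at 24 h, and its partner RUVBL2 by 0.30 ± 0.06. With ZnSO4 at 24 h they were -0.22 ± 0.06 and -0.19 ± 0.06, calls that were lost without ZnSO4 replicate 2 (edgeR adjusted p = 0.11 and 0.13), without ZnSO4 replicate 3 for RUVBL1 (0.064) and without DMSO replicate 2 or 3 for RUVBL2 (0.069 and 0.096). SKP2, a ubiquitin ligase subunit for MYC, fell by 0.52 ± 0.09 with GSK-J4 at 24 h and CCNT1, the cyclin of P-TEFb, rose by 0.51 ± 0.09.

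Of 16 genes that act on MYC protein stability, GSK-J4 gave 3 higher and 2 lower at 6 h and 2 higher and 5 lower at 24 h. Over all genes 9.83% were higher and 10.5% lower at 6 h, and 15.2% and 16.8% at 24 h. With no filter the counts of this list at 6 h were 0 and 1, and with library totals its count lower at 24 h was 3. ZnSO4 gave 1 lower at 1 h, 2 at 3 h (5 with only the groups compared) and 3 each at 6 and 24 h, the kinase genes PIM1 and PIM2 and the deubiquitinase gene USP36. Over all genes 0.678% were called at 1 h with ZnSO4, and 4.16%, 4.51% and 5.58% were lower at 3, 6 and 24 h. PIM2 fell at 24 h by 0.37 ± 0.06 with ZnSO4 and by 0.40 ± 0.06 with GSK-J4, and USP36 by 0.40 ± 0.08 with GSK-J4 at 6 h. The USP36 calls with ZnSO4 were lost with library totals (edgeR adjusted p = 0.067 and 0.057 at 6 and 24 h). PIM1 was the 1 h call (-0.36 ± 0.08), lost without DMSO replicate 2 or 3 or ZnSO4 replicate 1 or 3 (edgeR adjusted p from 0.064 to 0.10), and without DMSO replicate 3 or ZnSO4 replicate 3 the count at 6 h was 1.

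Of 16 SIN3-HDAC corepressor genes, 1 was higher and 2 lower with GSK-J4 at 6 h, a share called that is close to the 20.4% of all genes. At 24 h 0 were higher and 6 lower, beside 15.2% and 16.8% of all genes. With library totals the 24 h counts were 3 and 3, and at 6 h both counts went down to 0 without DMSO replicate 2. SAP30 (-0.37 ± 0.08) and SAP18 (-0.30 ± 0.06) were among the 6. ZnSO4 gave 1 higher at 3 h, 1 lower at 6 h and 0 at 24 h in edgeR (5 under an unadjusted 0.05, 0 by DESeq2), and both single calls were lost without DMSO replicate 2 of their time. Over all genes 6.59% were higher at 3 h, 4.51% lower at 6 h and 9.56% called at 24 h with ZnSO4. Of 12 genes of the complex that holds MGA, 2 were higher and 4 lower with GSK-J4 at 24 h, beside 15.2% and 16.8% of all genes. With library totals 1 was lower, and without DMSO replicate 3 or GSK-J4 replicate 3 it was 2. CBX3, a heterochromatin protein, fell by 0.35 ± 0.05 with GSK-J4 at 24 h, whereas RYBP (0.405 ± 0.08) rose, as MGA did in that comparison. E2F6 was the other gene higher (0.25 ± 0.09), a call lost with no filter (edgeR adjusted p = 0.17) and without DMSO replicate 3 (0.12) or GSK-J4 replicate 1 (0.11). At 6 h GSK-J4 gave 2 lower (CBX3 and L3MBTL2), beside 10.5% of all genes. ZnSO4 gave 1 higher at 3 h (RYBP) and 1 lower at 6 h (L3MBTL2), beside 6.59% and 4.51%. MGA was not called in those comparisons. In DMSO at 24 h against T0, RYBP and E2F6 were higher while MGA was lower.

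Of 12 genes with a part in the control of the MYC gene in plasma cells, GSK-J4 gave 4 higher at 6 h, and 3 higher and 4 lower (2 with library totals) at 24 h. Over all genes 9.83% were higher at 6 h, and 15.2% were higher and 16.8% lower at 24 h. The 1 call of the list at 3 h, XBP1, beside 2.38% of all genes called, was lost without any 1 of the 6 libraries. ZnSO4 gave 2 lower at 1 h, where 0.678% of all genes were called. It gave 3 higher and 3 lower at 3 h, 1 and 5 at 6 h, and 4 lower at 24 h, where 6.59%, 4.81% and 3.98% of all genes were higher and 4.16%, 4.51% and 5.58% lower at 3, 6 and 24 h. At 3 h 1 was higher with RLE size factors, library totals, no filter or DESeq2, and 5 were lower with library totals or only the groups compared. The count lower was 3 at 6 h without DMSO replicate 3 or ZnSO4 replicate 2, and 2 at 24 h without ZnSO4 replicate 3. IRF4, the factor on which myeloma cells depend, fell under ZnSO4 at 1 h from 868 ± 56.5 to 575 ± 38.1 CPM (-0.60 ± 0.06, edgeR adjusted p = 3.5e-11), and was lower at 3 and 24 h as well (-0.695 and -0.33). Its 6 h value of -0.21 was also called, but not without DMSO replicate 3 (edgeR adjusted p = 0.056) or ZnSO4 replicate 2 (0.052) or 3 (0.078). PRDM1, the plasma cell factor Blimp-1, fell at 1 h by 0.46 ± 0.07 on the log2 scale. With GSK-J4 IRF4 was higher at 6 h (0.23 ± 0.06), while XBP1, a secretory pathway factor, was higher at 6 and 24 h (0.47 and 0.24). IRF4 was called lower with GSK-J4 at 24 h (-0.17 ± 0.06), which was -0.08 with library totals (edgeR adjusted p = 0.31). MEF2C, a factor of B lineage cells, rose with GSK-J4 at 24 h (0.42 ± 0.06) and fell with ZnSO4 at 3 h (-0.47 ± 0.06).

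Over the 13 group means of log2 CPM, the genes closest to MYC by Pearson correlation were PES1, a ribosome biogenesis factor (0.948), PPRC1 (0.940), SCAMP3 (0.937), BCR (0.936) and ITGB5 (0.931), among 12450 genes. PPP1R15A (0.986) and BBC3 (0.986) were closest to MXD1, TENT5A (0.994) and RAB11FIP1 (0.991) to MXD4, PNRC1 (0.976) and KLHL24 (0.975) to MXI1, and RBIS (0.967) and NRIP2 (0.951) to MNT. VPS33A (0.970) and RNASEH2C (0.946) were closest to MAX, SREK1 (0.984) and AC021087.2 (0.984) to MXD3, EXOSC3 (0.998) and KANK1 (0.997) to MLX, MVD (0.893) and CTSF (0.880) to MLXIP, and MTHFSD (0.996) and PARS2 (0.995) to MGA. Without the 3 groups of 24 h, PES1 kept 0.955 with MYC, PPP1R15A 0.919 with MXD1, TENT5A 0.911 with MXD4 and EXOSC3 0.934 with MLX. Other values dropped further, to 0.714 and 0.662 for MTHFSD and PARS2 with MGA, 0.690 for RNASEH2C with MAX and 0.271 for SREK1 with MXD3. Between members, MXD1 and MLX stood at -0.955 over 13 groups and -0.806 over the 10 earlier groups, and MYC and MNT at 0.739 and 0.889. MYC and MXD1 stood at -0.011 and -0.513. These values describe group means that share libraries, scaling and the same culture times.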

How the data were processed

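RNA of 39 JJN3 libraries was analysed as raw counts per gene, which the authors deposited as whole numbers for 57773 Ensembl identifiers. Reads were aligned with HISAT2 2.1.0 to hg19, per the submitters' processing notes. How reads were counted, and with which gene models and strand option, is not given in the sources used here. Symbols came from a name table, or from GENCODE 29, whose summed exon lengths gave levels per kb. That annotation and the RefSeq promoter table are of another build than the alignment, so coordinates are given for promoter windows only.

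Groups follow the sample labels, and replicates are numbered by their order within a group. All libraries were fitted together in R 4.3.3 with edgeR 4.0.16 (loading limma 3.58.1): normalization by TMM, genes kept by filterByExpr (at least 10 counts), a mean for each group, quasi-likelihood F-tests and Benjamini-Hochberg adjustment over the 14460 genes tested, with 26 residual degrees of freedom and a biological coefficient of variation of 4.8%. Intervals are at 95%. Library totals of 4347745 to 10695671 counts limit the precision of the low members, MXD3 above all (36 to 132 counts per library). The script was tested on simulated data.

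The members and gene lists were chosen with earlier results of these data known. All 10 members are named in every comparison. Of each list, up to 4 genes called against DMSO with the smallest p are named, and likeness used log2(CPM + 0.5) among genes with an average log2 CPM of at least 1. Marker lists held 8 plasma cell genes and 13 of other cell types. Alternatives were DESeq2 1.42.0, edgeR with RLE factors or with library totals alone, edgeR without the low-count filter, a fit of only the groups compared, and leaving out each library.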

Additional observations from a re-analysis of the deposited data

Results flagged for a closer look

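The change against DMSO differed between neighbouring times in 9 cases by edgeR's test of the difference itself (Benjamini-Hochberg over all genes), on the log2 scale. For GSK-J4 from 3 to 6 h the difference was -0.583 for MYC (adjusted p = 0.0018) and 0.910 for MXD1 (1.3e-05). For GSK-J4 from 6 to 24 h it was -0.349 for MAX (edgeR adjusted p = 0.047), -1.038 for MXD1 (4.3e-09), -0.612 for MXI1 (1.1e-05) and 0.438 for MGA (0.012). For ZnSO4 from 1 to 3 h it was 0.985 for MXD1 (edgeR adjusted p = 6.2e-07) and 0.516 for MXI1 (0.00064), and from 3 to 6 h it was -0.888 for MXD1 (3.7e-05). Neighbouring differences share the libraries of the time between them.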

How the results depend on the processing

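Of the member values recomputed under the alternatives, 2709 kept their side of the threshold, 49 lost a call and 22 gained one. Of values called in either fit, 0 reversed direction. Values called in neither fit are among the 2709, and some of them changed sign. For 48 changes named among other genes, 474 recomputed values kept the call and 54 lost it. With no filter on low counts, members called were 1 for ZnSO4 at 6 h (3 in the reported fit), 2 for DMSO at 1 h against T0 (MYC and MNT, 0 as reported) and 2 for the GSK-J4 effect from 6 to 24 h (4). With only the groups compared they were 1 for GSK-J4 at 3 h (0), 2 for ZnSO4 at 24 h (1) and 1 for the GSK-J4 effect from 1 to 3 h (0). Leaving out 1 library at a time, they ran from 0 to 1 for DMSO against T0 at 1, 3 and 6 h each, 0 to 1 for GSK-J4 against ZnSO4 at 1 h, 2 to 4 for GSK-J4 against ZnSO4 at 24 h, 0 to 3 for ZnSO4 at 6 h and 2 to 4 for the GSK-J4 effect from 6 to 24 h. The 1 h difference between agents was MXD1 (-0.47, edgeR adjusted p = 0.038, without GSK-J4 replicate 2). Where a fit with 2 libraries in a group was used, their spread was taken from all groups.

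Over all genes, only the groups compared gave 1072 calls for GSK-J4 at 3 h (344 as reported), and 173 and 920 for its change from 1 to 3 h and 3 to 6 h (85 and 530). DMSO against T0 at 1, 3 and 6 h gave 5, 14 and 2 calls as reported, 31, 78 and 60 with no filter, 13, 80 and 17 with DESeq2, 0 each with only the groups compared and 47, 703 and 801 without T0 replicate 1, 58, 107 and 47 without T0 replicate 2, and 204 at 6 h without DMSO replicate 3. ZnSO4 gave 809 calls at 24 h without its replicate 2 (1382) and 876 at 6 h without its replicate 3 (1348). With library totals alone, the share of calls that were higher was 61.6% for GSK-J4 at 6 h (48.25%), 68.1% at 24 h (47.6%), 44.5% for ZnSO4 at 3 h (61.3%) and 29.8% for DMSO at 24 h against T0 (48.2%). For GSK-J4 against ZnSO4 it was 66.56%, 56.4% and 66.57% at 3, 6 and 24 h (39.5%, 46.3% and 48.9%). It was 65.3% for the GSK-J4 effect from 6 to 24 h (47.2%) and 47.2% for the ZnSO4 effect from 3 to 6 h (28.6%). No paired analysis was possible because the labels number samples in one run and give no replicate number that groups share. Low counts limit MXD3 most.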
